A study of Mus musculus with 12 samples.

Results

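The genes of the proteasome, the barrel-shaped protease that degrades ubiquitin-tagged proteins in the cytosol and nucleus, were followed across normal mouse liver and 3 groups of liver tumors. Members were the rows whose symbol starts with Psm, a letter from a to g and a digit. This rule found 49 of the 17007 genes listed. Of these, 47 encode proteasome parts or their dedicated helpers. The other rows share only the name pattern: Psmc3ip, a meiotic recombination factor, and Psme2b, a copy of Psme2. Psmb11, the thymus-specific catalytic subunit, was not among the rows.

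RNA-Seq had been run on 12 bulk tissue samples, 3 mice in each of 4 groups. Normal liver came from untreated C57BL/6 wild-type mice without injection. The 3 tumor groups were c-MYC/MCL1/RictorKO Tsc2KO hepatocellular carcinomas (HCCs), made by hydrodynamic tail vein injection of plasmids for c-MYC, MCL1 and Cre in mice with floxed Rictor and Tsc2 alleles (Rictor fl/fl, Tsc2 fl/fl). By the labels, all tumors thus carry the oncogenes c-MYC and MCL1 and a Cre-driven knockout of Rictor, a core part of mTORC2, and of Tsc2, a brake on mTORC1. In the gene-level values given in the next paragraph, Rictor in the drug-treated tumors overlapped normal liver. Tumor-bearing mice received vehicle, the mTOR kinase inhibitor MLN0128 or the rapamycin-type mTORC1 inhibitor everolimus by gavage, the drugs at 1 mg/kg per day, 6 days a week from day 6 after injection. The labels put this at 3 weeks of dosing with sacrifice at 3.7 weeks after injection, whereas the study's text gives these libraries a treatment of days, so the exposure is uncertain. The Cre plasmid acts only in transfected hepatocytes, so the other cells of the tissue keep both genes. Ages were not given in the sources used here, and nothing beyond the labels says how the mice of a group were related.

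Values are FPKM, read fragments divided by transcript length and library size, which allow levels of different genes to be compared per length. Reads recovered from the values came to between 17200967 and 25211206 per library. The deposited values also carry a scaling between libraries: the recovered factor was between 0.585 and 0.595 in normal liver and between 1.10 and 1.37 in the tumors. This scaling sets the direction of many tumor-to-liver differences, so counts between tumor and liver are given with other scalings beside them. Calls are those at the deposited scaling with all 12 libraries unless another setting is named. MLN0128 replicates 1 and 2 stood apart from the other 10 libraries: Xist was at 191 and 155 FPKM in them and at most 0.0699 FPKM elsewhere, and 4 Y-linked genes were at 0 in them only. By these genes the 2 mice read as female and the other 10 as male, and the study states that both sexes were used. Sex is thus partly confounded with MLN0128, and its part in the MLN0128 values was not tested. Rictor was at 1.65 to 2.57 FPKM in the liver libraries and 1.05 to 1.5 in vehicle tumors, and Tsc2 at 4.50 to 5.32 and 2.01 to 2.31. In the drug-treated tumors Rictor, at 1.58 to 2.21, overlapped liver, and Tsc2, at 2.78 to 3.96, stayed below it. These levels count all exons, also those outside a deleted part. In vehicle tumors all 6 hepatocyte markers were lower than in normal liver, with a median log2 fold change of -3.86, and 4 or 5 of them were called lower under each other scaling. In bulk tissue, fewer cells of a type and less RNA per cell cannot be told apart.

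A 26S proteasome is a 20S core capped by 19S regulatory particles. The core stacks rings of 7 alpha subunits, which form the gate, and rings of 7 beta subunits, of which Psmb5, Psmb6 and Psmb7 carry the catalytic sites. The 19S base holds a ring of 6 ATPases (Psmc1 to Psmc6) that unfold substrates and thread them into the core, and the lid removes ubiquitin chains through the metalloprotease Psmd14. Dedicated chaperones build the core (Psmg1 to Psmg4) and the base (Psmd5, Psmd9, Psmd10). Under interferon, or in immune cells, Psmb8, Psmb9 and Psmb10 replace the standard catalytic subunits to form the immunoproteasome, which trims peptides for MHC class I. The transcription factor NRF1 (Nfe2l1) is known to drive subunit genes together when proteasome capacity falls, through antioxidant response elements in their promoters.

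**Figure D1:**
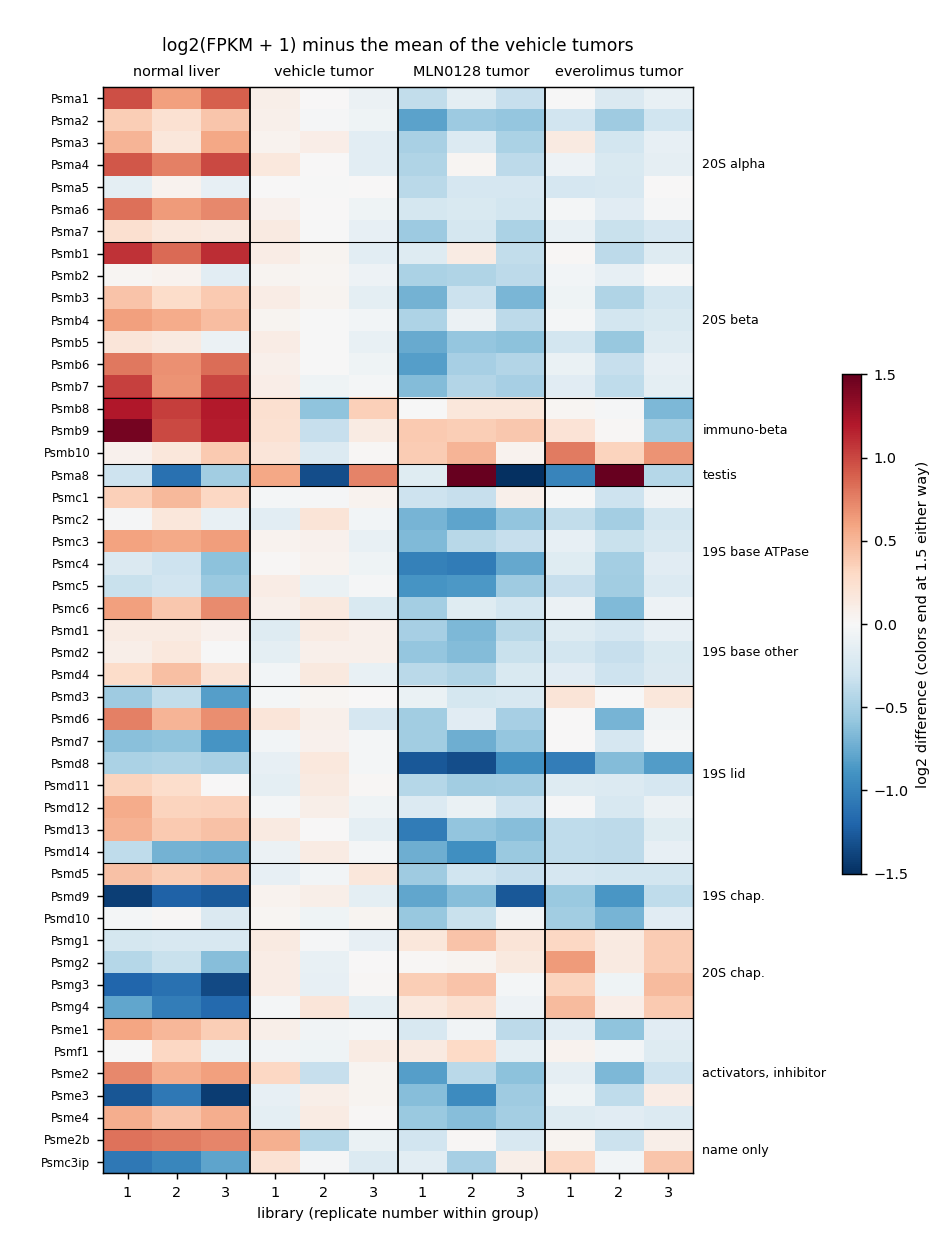
Heat map of the 49 members (rows, grouped by role) in the 12 libraries (columns, 3 per group). Color gives log2(FPKM + 1) minus the mean of the 3 vehicle tumors. The MLN0128 columns are blue across most of the core, base and lid rows, while the rows of Psmg1 to Psmg4 and of the immunoproteasome subunits are not, and Psma8 differs mostly between libraries of the same group.

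All 49 members passed the filter of at least 0.5 FPKM in at least 3 libraries, as did 14397 genes in all. A gene was called at a limma adjusted p under 0.05. Between vehicle tumors and normal liver, 12 members were called higher, against 36.0% of all tested genes, and 24 lower, against 33.0%. The median member log2 fold change was -0.21, and that of all tested genes 0.06. The 12 higher members stayed higher under each of the 3 other scalings tried, namely plain library totals, equal FPKM sums and quantile normalization. None of the 24 lower members stayed lower under all of these. Each of these scalings raised the members' median, from -0.21 to 0.69, 0.91 and 0.20. They could thus hardly remove a higher call or keep a lower one, and are a weak check of the higher calls. With plain library totals 36 members were called higher and 0 lower, against 61.3% and 15.2% of all tested genes. The median was then 0.69, beside 0.62 for all tested genes. Quantile normalization gave 20 higher and 6 lower, against 34.5% and 32.1% of all tested genes. By limma's treat test of a change above 1.5-fold, Psmd9, Psme3, Psmg3 and Psmg4 were higher (4 members, against 15.9% of all tested genes) and Psmb1, Psmb7 and Psmb9 lower (3 members, against 16.9%). The 3 vehicle libraries lay above all liver libraries for 13 members, against 39.0%, and below for 25, against 35.1%. The direction of the core genes between liver and tumor is thus set by the scaling. Of the 10 highest members under the deposited scaling, 8 were also among the highest 10 under each other scaling. Of the 10 lowest, 10 were shared with plain totals and with equal FPKM sums and 7 after quantile normalization. Plain totals and equal FPKM sums apply 1 factor per library, so they largely keep the order of members by construction. Only the quantile normalization counts, 8 and 7, bear on whether the order is stable.

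**Figure D2:**
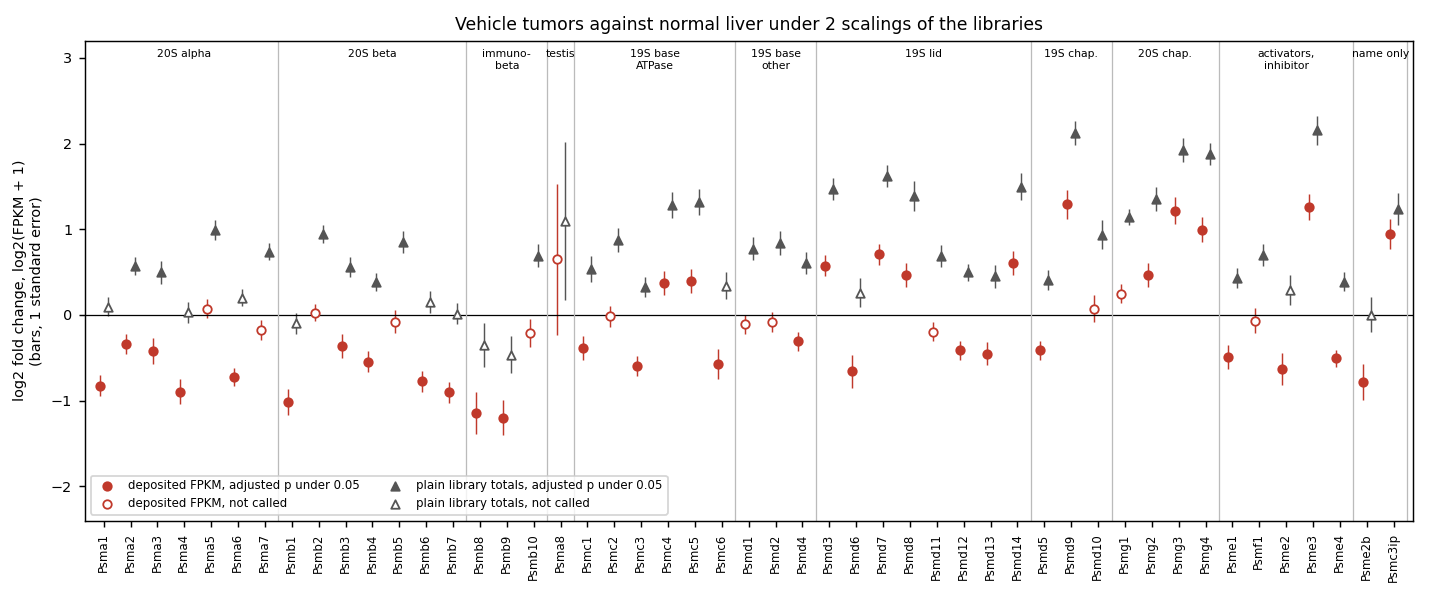
Log2 fold change of each member between vehicle tumors and normal liver (y axis, bars 1 standard error), grouped by role, with the deposited scaling (circles) and with plain library totals (triangles). Filled symbols have an adjusted p under 0.05. Plain totals move all members up, with the tallest values at Psmd9, Psme3, Psmg3 and Psmg4 under both.

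Between MLN0128 and vehicle tumors, 24 members were lower, against 17.1% of all tested genes, and 0 were higher, against 14.9%. At an unadjusted limma p under 0.05, 29 members were lower and 1 higher (Psmg1). A fit with limma's voom on the recovered reads also called 24 lower and 0 higher. The share of all tested genes was computed for neither, so these counts cannot be set against a background. The vehicle and MLN0128 libraries did not overlap for 31 members that lay below, against 23.4% of all tested genes, and 2 that lay above, against 22.1%. The median was -0.39 for the members and -0.01 for all tested genes. Of the 24, 8 stayed lower under each of the 3 other scalings: Psma2, Psmc2, Psmc4, Psmc5, Psmd8, Psmd13, Psmd14 and Psmd9. Of the 31 core, base and lid genes, 19 were called lower and the other 12 were not called. All 31 had a negative log2 fold change at the deposited scaling, where 50.9% of all tested genes were negative. With equal FPKM sums 27 were negative, against 36.0% of all tested genes, and 9 called lower, against 9.16%. The exceptions in sign were Psmb1, Psmc1, Psmd3 and Psmd12. After quantile normalization 23 were negative, against 47.4%, and 10 called lower, against 15.1%. Under the other scalings the members' median stayed below that of all tested genes, at -0.24 and 0.10 with plain library totals, at -0.15 and 0.16 with equal FPKM sums and at -0.16 and 0.03 after quantile normalization. Without MLN0128 replicates 1 and 2, the libraries that stood apart, 7 members were called lower, in a fit where the remaining library is assumed to vary like the other groups.

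Everolimus moved fewer members past the test. It left 2 lower (Psmd8 and Psmd9), against 6.05% of all tested genes, and 1 higher (Psmb10), against 3.78%. The median was -0.19 for the members and 0.03 for all tested genes, and 30 of the 31 core, base and lid genes were negative, against 45.2% of all tested genes, but mostly not called. Everolimus libraries lay above vehicle for 2 members, against 17.6%, and below for 19, against 14.8%. By treat 0 were higher and 0 lower, against 0.0347% and 0.570%. At an unadjusted limma p under 0.05 the numbers were 3 and 11, for which no share of all tested genes was computed. Both drug comparisons use the same 3 vehicle libraries. Tested directly against everolimus, MLN0128 left 5 members lower, against 5.54% of all tested genes: Psmc4, Psmd7, Psme3, Psmb2 and Psme4. None was higher, against 3.99% of all tested genes, and 0 were higher by voom. At an unadjusted limma p under 0.05, 19 were lower and 1 higher (Psmb9), again without a computed share of all tested genes. The median of -0.24 for the members (-0.03 for all tested genes) became 0.0044 with equal FPKM sums (0.15 for all tested genes). None of these 5 stayed lower under all 3 other scalings, and 0 were called without MLN0128 replicate 1, without everolimus replicate 1 or without everolimus replicate 3.

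**Figure D3:**
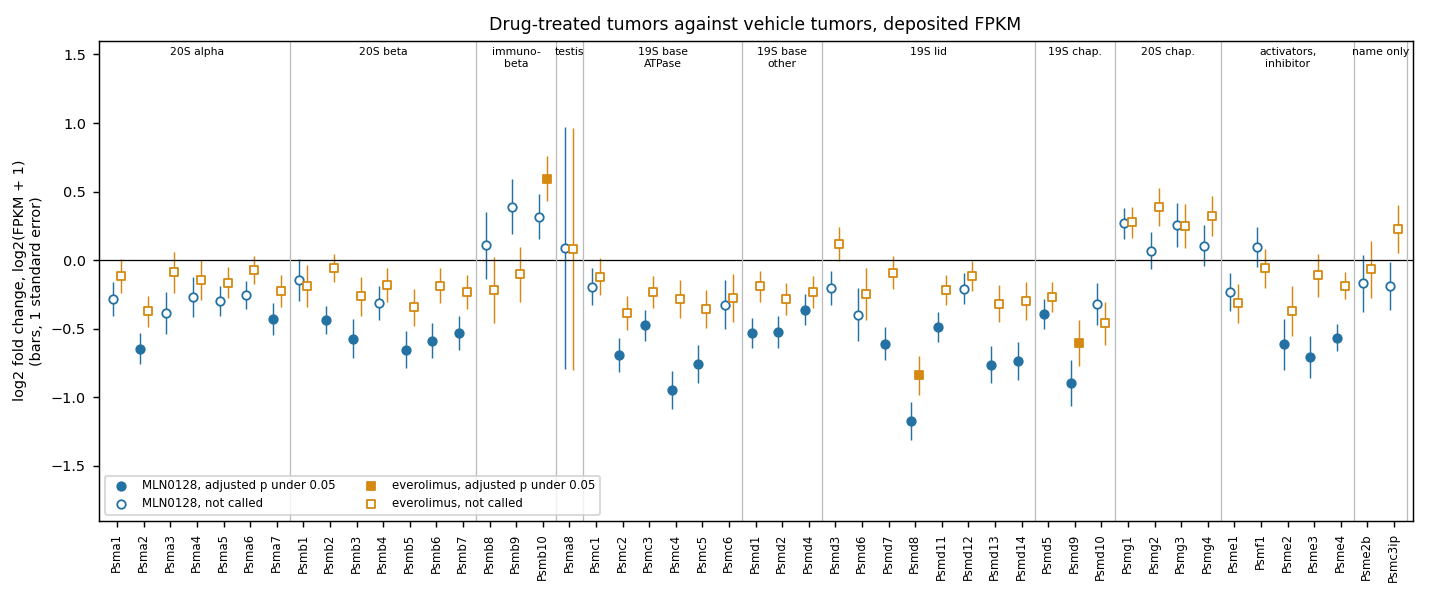
Log2 fold change of each member against vehicle tumors (y axis, bars 1 standard error) with MLN0128 (circles) and everolimus (squares), grouped by role. Filled symbols have an adjusted p under 0.05. Psmd8 is lowest with both drugs, at -1.17 and -0.84.

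The 20S core genes were lower in the tumors at the deposited scaling. Their median FPKM in a library was between 76.8 and 81.4 in liver, between 59.8 and 68.4 in vehicle tumors, between 42.1 and 51.0 under MLN0128 and between 50.6 and 61.1 under everolimus. Of the 14 core genes, 10 were lower in vehicle tumors than in normal liver, against 33.0% of all tested genes, and 0 higher, against 36.0%. With plain library totals 8 were higher and 0 lower, against 61.3% and 15.2% of all tested genes. With equal FPKM sums 12 were higher and 0 lower, against 65.95% and 11.71%. Psmb1, a non-catalytic beta subunit, had the lowest value at -1.01, and Psma5 the highest, 0.07 and not called. None of these 10 kept its call under all other scalings.

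Psmb5 carries the chymotrypsin-like site that bortezomib blocks, and had the highest mean FPKM of the core in each group. It was at 171, 165 and 141 FPKM in the liver libraries, 162, 150 and 139 in vehicle tumors, 88.1, 100 and 97.6 under MLN0128 and 124, 101 and 131 under everolimus. Liver and vehicle tumors overlapped, whereas every MLN0128 library was below both. The log2 fold change was -0.65 under MLN0128 (SE 0.14, limma adjusted p = 0.0042) and -0.34 under everolimus (SE 0.14, limma adjusted p = 0.130).

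The other catalytic genes also fell with MLN0128. Psmb6, the caspase-like subunit, was at 74, 70.0 and 67.3 FPKM with vehicle and at 39.4, 49.4 and 51.7 under MLN0128, a log2 fold change of -0.59 (SE 0.13, limma adjusted p = 0.00504). Psmb7, the trypsin-like subunit, was at 38.9, 34.7 and 35.4 in vehicle tumors and at 22.8, 26.6 and 25.3 under MLN0128, a log2 fold change of -0.53 (SE 0.12, limma adjusted p = 0.00797). The groups did not overlap for either gene. With equal FPKM sums neither was called, at -0.35 for Psmb6 (limma adjusted p = 0.0592) and -0.30 for Psmb7 (limma adjusted p = 0.0867), and after quantile normalization Psmb5 and Psmb6 were not, at -0.28 and -0.32. Psma2 was the alpha subunit with the lowest value, at -0.64, and Psma6 the highest, at -0.25 and not called.

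Of the 17 base and lid genes of the 19S, 6 were higher in vehicle tumors and 7 lower, shares close to the 36.0% and 33.0% of all tested genes. With plain library totals 15 were higher and 0 lower, against 61.3% and 15.2% of all tested genes. The 6 were Psmc4, Psmc5, Psmd3, Psmd7, Psmd8 and Psmd14, all of them higher under every scaling tried, where each other scaling raised the members' median. They include 2 of the 6 ATPases and 4 of the 8 lid genes. Psmd14 cuts the ubiquitin chain off a substrate as it enters, and Psmd7 is its inactive partner. Psmd7 rose most, by 0.71 (SE 0.12, limma adjusted p = 0.000234), and Psmd14 by 0.61 (SE 0.14, limma adjusted p = 0.00205). Within a library, the summed FPKM of the 8 lid genes per 100 FPKM of the core was 26.6, 27.1 and 24.9 in liver, 36.4, 41.8 and 40.0 in vehicle tumors, 36.1, 30.6 and 35.5 under MLN0128 and 35.2, 37.7 and 37.3 under everolimus. Every tumor library was above liver by this ratio. The MLN0128 libraries were below vehicle, but narrowly, the nearest being 36.1 and 36.4. Psmd8, the lid gene that fell most with MLN0128, is part of the sum. The ratio is thus not a statement about the lid genes one by one, and the part of Psmd8 in it was not tested.

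Psmd8 (Rpn12), a lid subunit that joins late in lid assembly, was the member that MLN0128 lowered most. Its gene is on chr7:29174188-29180701 (GRCm38, minus strand). It was at 65.9, 67.3 and 65.7 FPKM in the liver libraries, 84.4, 103.0 and 90.2 in vehicle tumors, 37.6, 36.2 and 48.1 under MLN0128 and 44.5, 58.5 and 51.1 under everolimus. Every vehicle library was above all others, and every drug library was below normal liver. On the log2 scale the change was 0.47 in vehicle tumors (SE 0.14, limma adjusted p = 0.0104), -1.17 under MLN0128 (SE 0.14, limma adjusted p = 0.000258) and -0.84 under everolimus (SE 0.14, limma adjusted p = 0.00459). Psmd8 was the only member whose MLN0128 fall passed limma's treat test of a change above 1.5-fold, which 1.65% of all tested genes passed downward, while 0 members and 0.479% of all tested genes passed upward. The difference between the drugs missed the threshold, at -0.33 (95% interval -0.66 to -0.01, limma adjusted p = 0.152).

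Psmc4 (Rpt3), an ATPase of the base, came second with MLN0128. It was at 43.8, 41.1 and 33.1 FPKM in the liver libraries, 51.7, 52.8 and 48.7 in vehicle tumors, 24.8, 24.1 and 29.5 under MLN0128 and 44.9, 35.5 and 45.4 under everolimus. MLN0128 libraries lay below every library of the other groups. The rise of 0.38 from liver to vehicle tumors (limma adjusted p = 0.0294) was not called without normal liver replicate 3, vehicle replicate 1 or vehicle replicate 2, at 0.26, 0.37 and 0.35. Fitted log2 fold changes were -0.94 under MLN0128 (SE 0.14, limma adjusted p = 0.000678) and -0.29 under everolimus (SE 0.14, limma adjusted p = 0.211), and the difference of -0.66 between the drugs was called (limma adjusted p = 0.0177), with adjusted p-values from 0.0130 to 0.221 over the alternatives. That call was lost without MLN0128 replicate 1, everolimus replicate 1 or everolimus replicate 3. Psmc1 moved least of the ATPases with MLN0128, at -0.20 and not called.

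Among the other base and lid genes, the base scaffold subunits Psmd1 and Psmd2 and the ubiquitin receptor Psmd4 were all lower with MLN0128, at -0.53, -0.52 and -0.36. The Psmd4 call (limma adjusted p = 0.0320) was lost under all 3 other scalings, with the replicate block (limma adjusted p = 0.0627) and in 4 of the 12 fits that left out 1 library, those without vehicle replicate 1 (-0.38), vehicle replicate 2 (-0.29), MLN0128 replicate 1 (-0.34) or MLN0128 replicate 2 (-0.32). The Psmd2 call was also lost under all 3, at -0.37 with plain totals, and the Psmd1 call with equal FPKM sums, at -0.31. Psmd13 (Rpn9) of the lid was at -0.76 and Psmd14 at -0.73. The exons of Psmd13 overlap those of Sirt3 on the opposite strand, and whether the counting used strand was not given in the sources used here. The lid genes Psmd3, Psmd6 and Psmd12 were not called, and Psmd3 was the only one of the 17 with a positive value under everolimus, at 0.12.

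**Figure D4:**
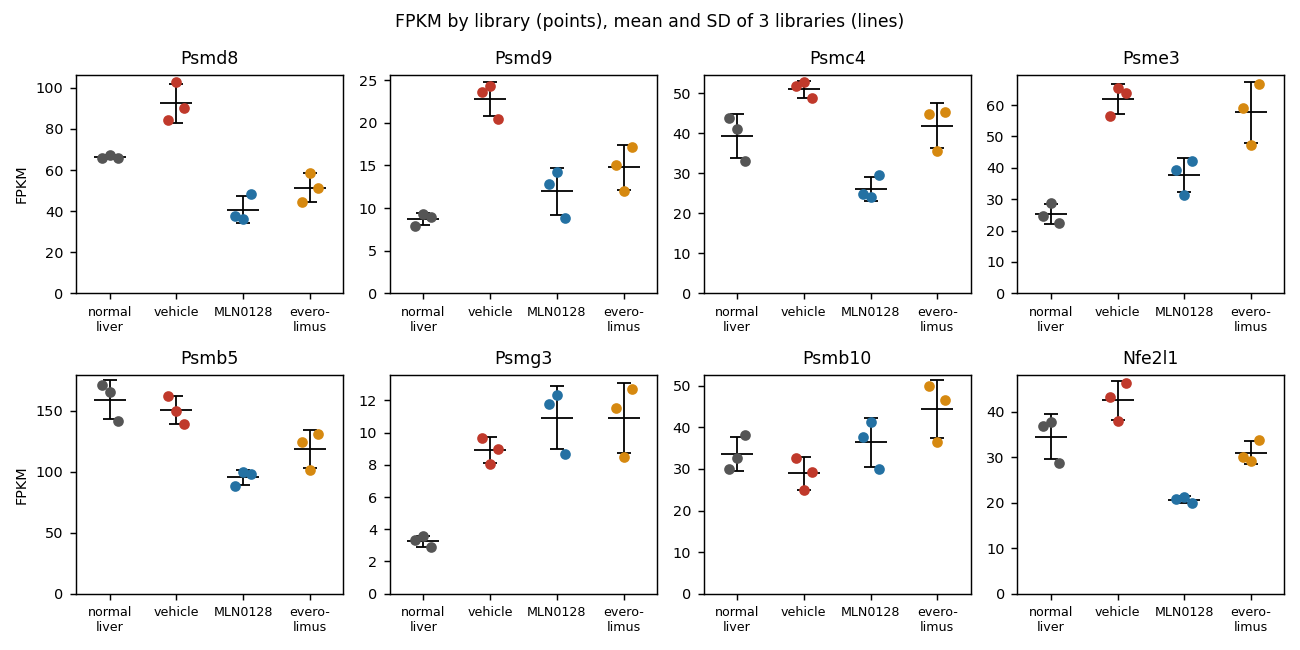
FPKM (y axis, from 0) of 7 members and of Nfe2l1 in each library (points) with the mean and SD of 3 libraries per group (lines). Psmd8, Psmd9 and Psme3 are high in vehicle tumors, Psmg3 is high in all tumor groups, and Nfe2l1 is lowest with MLN0128.

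The 20S assembly chaperones were higher in vehicle tumors than in liver, 3 of the 4 by the test, against 36.0% of all tested genes. Psmg1 and Psmg2 form a pair that seeds the alpha ring, and Psmg3 and Psmg4 form a second pair that completes it. Psmg3, on chr5:139823592-139826885 (GRCm38, minus strand), was at 3.33, 3.57 and 2.88 FPKM in the liver libraries, 9.69, 8.07 and 8.98 in vehicle tumors, 11.8, 12.3 and 8.67 under MLN0128 and 11.5, 8.46 and 12.7 under everolimus. All tumor libraries were above all liver libraries, and the 3 tumor groups overlapped. The exons of Psmg3 overlap those of the protein-coding gene Gm26938 on the same strand, so its reads may be mixed. Psmg3 was higher in vehicle tumors than in liver by 1.22 (SE 0.16, limma adjusted p = 3.64e-05). Psmg4 was higher by 0.99 (limma adjusted p = 9.07e-05) and Psmg2 by 0.47 (limma adjusted p = 0.00953), while Psmg1 was at 0.25 and not called (limma adjusted p = 0.0705).

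None of the 4 genes was called with either drug, and all had positive values. These ran from 0.07 for Psmg2 to 0.27 for Psmg1 under MLN0128 and from 0.25 for Psmg3 to 0.39 for Psmg2 under everolimus. With equal FPKM sums Psmg1, Psmg3 and Psmg4 were called higher with MLN0128, at 0.50, 0.48 and 0.34. Against the core the genes can be compared within a library, where a single scaling factor per library cancels. Quantile normalization is not such a factor and can change these ratios. Their summed FPKM per 100 FPKM of the 14 core genes was 5.54, 5.92 and 5.09 in normal liver, 11.9, 12.2 and 12.1 in vehicle tumors, 19.4, 17.7 and 17.2 under MLN0128 and 18.1, 16.4 and 17.7 under everolimus. Liver, vehicle and the drug groups did not overlap, while the drug groups overlapped each other. An exact permutation test of 3 against 3 libraries cannot go below p = 0.1 (two-sided), which each of these separations reached.

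Of the 19S assembly chaperones, Psmd9 was higher in vehicle tumors, Psmd5 lower and Psmd10 not called. Psmd9 (p27) escorts the ATPases Psmc3 and Psmc6 into the base, Psmd10 (gankyrin) escorts Psmc4, and Psmd5 escorts Psmc2 and Psmc1. Psmd9, on chr5:123169413-123250131 (GRCm38, plus strand), was at 7.92, 9.28 and 8.90 FPKM in the liver libraries, 23.6, 24.3 and 20.5 in vehicle tumors, 12.8, 14.2 and 8.87 under MLN0128 and 15.1, 12 and 17.2 under everolimus. Vehicle tumors stood above all other libraries, and 1 MLN0128 library lay within the liver range. The exons of Psmd9 overlap those of the noncoding gene Gm26745 on the opposite strand. The log2 fold change of Psmd9 was 1.29 in vehicle tumors (SE 0.17, limma adjusted p = 3.35e-05), -0.90 under MLN0128 (SE 0.17, limma adjusted p = 0.00251) and -0.60 under everolimus (SE 0.17, limma adjusted p = 0.0454). The everolimus call ranged in adjusted p from 0.0136 to 0.127 over the alternatives and was lost in 9 of the 12 fits that left out 1 library, the exceptions being MLN0128 replicates 2 and 3 and everolimus replicate 3.

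Psmd10 was at 14.6, 15.1 and 12.7 FPKM in the liver libraries and 15.2, 14.2 and 15.3 in vehicle tumors, which overlapped. It was not called in any comparison at the deposited scaling with all libraries, but was higher in vehicle tumors with plain library totals (0.93) and with equal FPKM sums (1.17). It was lower with MLN0128 without MLN0128 replicate 3 (-0.45, limma adjusted p = 0.0459) and with everolimus without everolimus replicate 3 (-0.60, limma adjusted p = 0.0455). Psmd10 is on chromosome X. Without MLN0128 replicate 3, all MLN0128 mice left read as female and all vehicle mice as male, so sex and drug cannot be told apart there. Psmd5 was lower in vehicle tumors, at -0.41, a call that did not hold under all scalings, and lower with MLN0128 than with vehicle, at -0.39 (limma adjusted p = 0.0162), which was lost without vehicle replicate 3 (-0.31) or MLN0128 replicate 1 (-0.32).

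The activators replace or join the 19S cap and open the gate without needing ubiquitin. Psme3 (PA28gamma), the nuclear activator, was higher in vehicle tumors, whereas Psme1 and Psme2 (PA28alpha and PA28beta), the interferon-induced cytosolic pair, were not. Psme3, on chr11:101316213-101323537 (GRCm38, plus strand), was at 24.8, 28.8 and 22.4 FPKM in the liver libraries, 56.4, 65.4 and 63.7 in vehicle tumors, 39.4, 31.5 and 42.2 under MLN0128 and 59.0, 47.2 and 66.7 under everolimus. All tumor libraries were above liver, MLN0128 libraries lay between liver and the other tumors, and everolimus overlapped vehicle. On the log2 scale the change was 1.26 in vehicle tumors (SE 0.16, limma adjusted p = 2.14e-05), -0.71 under MLN0128 (SE 0.16, limma adjusted p = 0.00578) and -0.11 under everolimus (SE 0.16, limma adjusted p = 0.700). The difference between the drugs was -0.60 (limma adjusted p = 0.0368), with adjusted p-values from 0.0199 to 0.307 over the alternatives, and was not called under any other scaling. The MLN0128 fall against vehicle was not called with equal FPKM sums (-0.47) or after quantile normalization (-0.46).

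Psme1 and Psme2 had lower values in vehicle tumors than in liver, at -0.48 and -0.63, calls that did not hold under all scalings. Within a library Psme3 was at 40.3, 50 and 42.5 per 100 FPKM of Psme1 in normal liver and at 131, 167 and 160 in vehicle tumors. Psme2 fell with MLN0128 by 0.62 on the log2 scale (limma adjusted p = 0.0253), a call lost without vehicle replicate 1 (-0.46), vehicle replicate 3 (-0.60) or MLN0128 replicate 1 (-0.51), and Psme1 was at -0.23 and not called. Psme4 (PA200), a single-chain activator, was lower with MLN0128 at -0.57 (limma adjusted p = 0.00157), a call not kept with equal FPKM sums. The inhibitor Psmf1 (PI31) lay between 4.59 and 6.91 FPKM in all 12 libraries and was called in no comparison at the deposited scaling. In vehicle tumors it was called higher with plain library totals, at 0.70, and with equal FPKM sums, at 0.91.

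Psmd9, Psme3 and Psmg3 rose most between liver and tumor, and Psmb6 was a catalytic gene that fell with MLN0128. The 250 bases upstream of their RefSeq starts are printed here to show which of them hold the E-box CACGTG, which MYC binds with MAX, or the antioxidant response element core TGACNNNGC. The windows are chr5:123227940-123228189 (plus strand) for Psmd9, chr11:101315963-101316212 (plus strand) for Psme3, chr11:70525107-70525356 (plus strand) for Psmb6 and chr5:139826895-139827144 (minus strand) for Psmg3, in GRCm38.p6. Capitals mark matches on either strand to CACGTG, TGACNNNGC, the NF-Y box CCAAT or the interferon-stimulated element, GAAA followed after any 2 bases by GAAA.
Psmd9: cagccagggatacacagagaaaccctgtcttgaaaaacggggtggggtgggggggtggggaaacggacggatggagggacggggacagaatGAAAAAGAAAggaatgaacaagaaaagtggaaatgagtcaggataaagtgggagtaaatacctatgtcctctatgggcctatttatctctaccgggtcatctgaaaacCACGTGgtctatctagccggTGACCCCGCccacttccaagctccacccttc
Psme3: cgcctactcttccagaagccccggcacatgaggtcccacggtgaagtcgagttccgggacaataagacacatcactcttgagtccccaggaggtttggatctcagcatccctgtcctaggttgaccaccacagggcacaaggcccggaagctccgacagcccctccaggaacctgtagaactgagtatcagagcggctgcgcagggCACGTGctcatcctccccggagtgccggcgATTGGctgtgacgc
Psmb6: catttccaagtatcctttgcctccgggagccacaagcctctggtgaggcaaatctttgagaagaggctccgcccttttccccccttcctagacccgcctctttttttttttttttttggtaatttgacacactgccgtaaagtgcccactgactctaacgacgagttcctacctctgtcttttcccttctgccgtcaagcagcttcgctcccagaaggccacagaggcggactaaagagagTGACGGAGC
Psmg3: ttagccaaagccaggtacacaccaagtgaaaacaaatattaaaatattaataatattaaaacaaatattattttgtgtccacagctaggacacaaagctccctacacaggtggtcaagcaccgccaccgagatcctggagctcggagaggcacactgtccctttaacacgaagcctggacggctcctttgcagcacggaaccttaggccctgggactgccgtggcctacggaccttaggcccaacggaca

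Psmd9 held the E-box, the TGACNNNGC core and the interferon-stimulated element without overlap, Psme3 held the E-box and, on the other strand, the CCAAT box (ATTGG), Psmb6 held the TGACNNNGC core in its last 9 bases, and Psmg3 held none. RefSeq promoters were matched for 41 members, with 44 windows. The E-box was in 4 of the 44 windows (9.09%; Psma4, Psmb10, Psmd9 and Psme3), beside 6.02% of 32851 windows of all genes. The TGACNNNGC core was in 5 (11.4%; Psmb5, Psmb6, Psmc6, Psmd12 and Psmd9), beside 10.2%. CCAAT was in 14 (31.8%), beside 33.9%, and the interferon-stimulated element in 3 (6.82%; Psmb3, Psmd4 and Psmd9), beside 2.98%. A match describes the letters in the window only.

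Of the immunoproteasome genes, Psmb8 and Psmb9 were lower in vehicle tumors at the deposited scaling and Psmb10 was not called. Psmb8, on chr17 beside Psmb9 and the peptide transporter gene Tap1, was at 9.12, 7.99 and 9.04 FPKM in the liver libraries, 4.20, 1.89 and 4.63 in vehicle tumors, 3.36, 3.93 and 3.93 under MLN0128 and 3.48, 3.34 and 1.76 under everolimus. Psmb9 was at 6.97, 4.86 and 5.66, then 2.46, 1.32 and 2.21, then 2.89, 2.82 and 2.91, then 2.40, 1.99 and 1.05 in the same order. For both genes every tumor library was below every liver library. The log2 fold change in vehicle tumors was -1.14 for Psmb8 (SE 0.24, limma adjusted p = 0.00126) and -1.20 for Psmb9 (SE 0.20, limma adjusted p = 0.000227), calls that plain totals and equal FPKM sums did not keep.

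Each gene was also set against the constitutive subunit it replaces, a ratio that a single factor per library does not change but quantile normalization can. Psmb8 was at 5.33, 4.84 and 6.41 per 100 FPKM of Psmb5 in liver and at 2.59, 1.26 and 3.33 in vehicle tumors. Psmb9 was at 5.67, 4.26 and 4.46 per 100 of Psmb6 in liver and at 3.32, 1.89 and 3.28 in vehicle tumors. Both ratios were thus lower in every vehicle library than in liver. With MLN0128 they were above vehicle in every library, at 3.81 to 4.03 for Psmb8 and 5.63 to 7.34 for Psmb9, while everolimus overlapped vehicle. In these ratios the constitutive subunits fell with MLN0128, and neither Psmb8 (0.11) nor Psmb9 (0.39) was itself called.

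Psmb10, which replaces Psmb7, was the member called higher with everolimus at the deposited scaling. With MLN0128 it was not called at that scaling, but its lowest limma adjusted p over the alternatives was 0.00626. After quantile normalization it had the highest MLN0128 value of the members. A rise particular to everolimus was thus not shown. Psmb10 was at 30, 32.6 and 38.2 FPKM in the liver libraries, 32.7, 24.9 and 29.2 in vehicle tumors, 37.8, 41.4 and 29.9 under MLN0128 and 49.9, 36.5 and 46.6 under everolimus. Liver and vehicle overlapped, and every everolimus library was above vehicle. The everolimus log2 fold change was 0.60 (SE 0.16, limma adjusted p = 0.0427), with adjusted p-values from 0.0127 to 0.162 over the alternatives. The call was lost in 8 of the 12 fits that left out 1 library, namely each vehicle library, everolimus replicates 1 and 3, normal liver replicates 1 and 2 and MLN0128 replicate 1. Without everolimus replicate 1 the value was 0.51. Per 100 FPKM of Psmb7, Psmb10 was at 40.0, 55.7 and 51.9 in liver, 84.1, 71.8 and 82.5 in vehicle tumors, 166, 156 and 118 under MLN0128 and 155, 132 and 142 under everolimus.

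**Figure D5:**
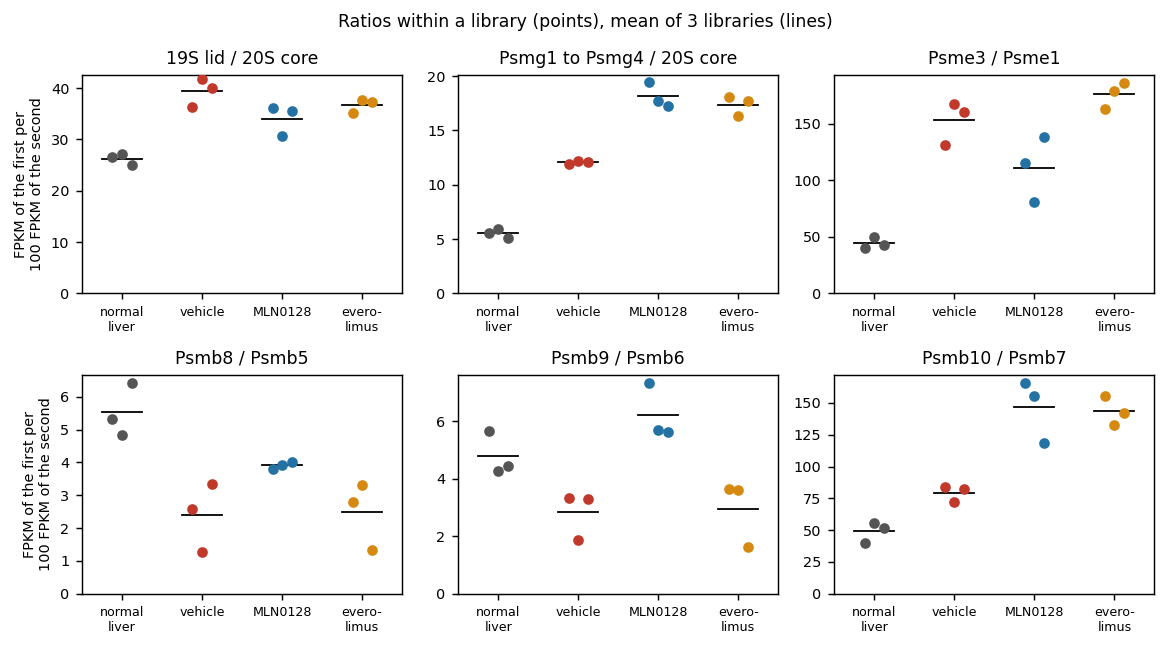
FPKM of a gene or gene group per 100 FPKM of another in the same library (y axis, from 0), by library (points) with group means (lines). Psmg1 to Psmg4 against the core and Psmb10 against Psmb7 step up from liver to vehicle to the drug groups, whereas Psmb8 against Psmb5 and Psmb9 against Psmb6 are lowest with vehicle and everolimus.

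Markers of antigen-presenting cells, which use the immunoproteasome, also differed between the groups. All 4 (Cd74, H2-Aa, H2-Ab1, H2-Eb1) were lower in vehicle tumors, with a median of -1.53, and higher with MLN0128, with a median of 1.19. The MLN0128 calls held under each scaling, while with plain library totals 1 of the 4 was lower in vehicle tumors and with equal FPKM sums 0. Their summed FPKM was 110 to 237 in liver, 31.7 to 70.4 in vehicle tumors, 92.2 to 135 under MLN0128 and 46.3 to 65.6 under everolimus. Of 6 leukocyte genes 5 were listed and 2 tested, and neither was called in any comparison at the deposited scaling. Both were lower in vehicle tumors after quantile normalization. The summed FPKM of the 5 was 1.89 to 2.49 in liver, 0.902 to 1.03 in vehicle tumors, 1.09 to 2.64 under MLN0128 and 0.747 to 1.83 under everolimus. Among them Ptprc (CD45) stayed between 0.347 and 0.915 FPKM in all libraries. The part of these cell types in the Psmb8 and Psmb9 values was not tested. Of 11 class I presentation partners 8 were lower and 0 higher in vehicle tumors, against 33.0% and 36.0% of all tested genes. With plain library totals 4 were lower and 4 higher, against 15.2% and 61.3%. With MLN0128 4 of the 11 were lower and 1 higher, against 17.1% and 14.9%, with a median of -0.37. The higher one was Tap1, whose exons overlap those of Psmb9 on the opposite strand, at 0.79 (limma adjusted p = 0.0122) and at 0.20 in vehicle tumors, not called. Of 16 interferon response genes 9 were lower in vehicle tumors and 4 higher, and with plain library totals 3 and 5, beside the same shares of all tested genes. With MLN0128 9 were lower, against 17.1%, with a median of -0.75, Rsad2 most at -2.28 and Isg15 next at -2.23. With everolimus 8 were lower, against 6.05%, with a median of -0.83.

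The remaining members were low. Psma8, the testis form of an alpha subunit, ranged from 0.0988 to 11.9 FPKM among the 3 MLN0128 libraries alone and was called in no comparison. Its lowest value rests on 6 recovered reads. Psmc3ip was at 0.255 to 0.527 FPKM in liver and 1.30 to 2.08 in vehicle tumors, higher by 0.95 (limma adjusted p = 0.000471). Its liver values rest on 5 to 10 reads, and it passed the filter only through the tumor libraries, where it is high, so that it had to differ and its call among the 12 higher members gives no support. Psme2b was at 6.98 to 7.42 and 2.55 to 5.91, and its reads may be shared with Psme2, of which it is a copy.

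Taking liver, vehicle and MLN0128 in order, the members fell into 6 patterns by their calls. The 7 that were higher in vehicle tumors and lower with MLN0128 were Psmc4, Psmc5, Psmd7, Psmd8, Psmd14, Psmd9 and Psme3. A further 5 were higher in tumors and not called with MLN0128, namely Psmd3, Psmg2, Psmg3, Psmg4 and Psmc3ip. Another 10 were lower at both steps, 14 lower in tumors only by the test, 7 lower with MLN0128 only by the test, and 6 called in neither. No share of all tested genes was computed for these patterns, which hold at the deposited scaling. Of the 24 lower calls in tumors 0 held under all 3 other scalings, and of the 24 lower calls with MLN0128 8 did. The tumor and MLN0128 comparisons share the vehicle libraries.

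Several partners of the particle lie outside the name pattern. Pomp, which matures the core and is needed for its catalytic subunits, was at 41.1, 37.5 and 39.6 FPKM in liver, 19.4, 15.5 and 18.9 in vehicle tumors, 11.1, 12.7 and 12.2 under MLN0128 and 15.3, 13.3 and 16.0 under everolimus. It was below liver in every tumor library (-1.10, limma adjusted p = 5.25e-06, a direction that equal FPKM sums turned to 0.06) and lower with MLN0128 (-0.54, limma adjusted p = 0.00465). The 19S ubiquitin receptor Adrm1 was lower with MLN0128 at -0.60 (limma adjusted p = 0.00262), as was the small lid protein Sem1 at -0.62 (limma adjusted p = 0.0208). The Sem1 call was lost without vehicle replicate 1 (-0.48), MLN0128 replicate 1 (-0.50) or MLN0128 replicate 3 (-0.57). The MLN0128 calls of Pomp and Adrm1 were kept in each of the 12 fits that left out 1 library, but not in every other alternative. The proteasome-bound deubiquitinases Uchl5 and Usp14 were higher in vehicle tumors, by 1.41 and 0.56, under every scaling tried. Each other scaling raised the median of the partner list in that comparison, so this is a weak check. Neither gene was called with a drug when all libraries were used. Zfand2a (AIRAP), a stress-induced proteasome partner, went from 5.03 to 6.31 FPKM in liver to 16.7 to 22.4 in vehicle tumors and back to 6.00 to 9.30 under MLN0128 and 5.87 to 8.11 under everolimus.

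The counts of these lists turned with the scaling between tumor and liver, where 36.0% of all tested genes were higher and 33.0% lower, and with plain library totals 61.3% and 15.2%. Of the 13 tested partners 4 were higher and 2 lower in vehicle tumors, and 11 and 0 with plain totals. With MLN0128 6 were lower, against 17.1% of all tested genes, and 2 with equal FPKM sums. Among 13 shuttle and extraction factors 2 were higher and 2 lower in vehicle tumors, and 12 and 0 with plain totals. With MLN0128 3 were lower, and 1 lower and 1 higher with equal FPKM sums, and 1 was lower under everolimus. The shuttle Ubqln2 moved most, from 5.62 to 9.68 FPKM in liver to 48.4 to 55.1 in vehicle tumors, 11 to 14.9 under MLN0128 and 20.6 to 29.5 under everolimus. Of 6 ubiquitin and E1 genes 4 were higher and 1 lower in vehicle tumors, and 6 and 0 with plain totals. With MLN0128 2 were lower, and 1 under each other scaling. The ubiquitin gene Ubb was lower with MLN0128 at -0.52 (limma adjusted p = 0.0283) and with everolimus at -0.71 (limma adjusted p = 0.0197), calls lost under other scalings and with single libraries left out. Rps27a, which encodes ubiquitin fused to a ribosomal protein, was not called with either drug.

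Nfe2l1, which encodes NRF1, was at 37.0, 37.8 and 28.8 FPKM in the liver libraries, 43.3, 38.0 and 46.4 in vehicle tumors, 20.9, 21.3 and 19.9 under MLN0128 and 30, 29.3 and 33.9 under everolimus. MLN0128 libraries lay below all others, and everolimus libraries lay between MLN0128 and vehicle. Fitted log2 fold changes were -1.0 under MLN0128 (SE 0.13, limma adjusted p = 0.000331), a call kept under each other scaling, and -0.44 under everolimus (SE 0.13, limma adjusted p = 0.0484), which 2 of the 3 other scalings and 10 of the 12 fits without 1 library did not keep. The difference between the drugs was -0.56 (limma adjusted p = 0.0219), a call lost without MLN0128 replicate 1 or everolimus replicate 1 or 3. In vehicle tumors it was at 0.30 (limma adjusted p = 0.0514) and was called higher under each other scaling.

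Among the factors that process NRF1, Ngly1, which removes its sugars, was lower in vehicle tumors, at -1.59 (limma adjusted p = 4.42e-07), under every scaling, and Ddi2, the protease that cuts NRF1, was not called in any comparison at the deposited scaling with all 12 libraries, but was called higher in vehicle tumors with plain library totals (0.52) and with equal FPKM sums (0.77) and lower with only those groups fitted (-0.37, limma adjusted p = 0.0311), without MLN0128 replicate 3 (limma adjusted p = 0.0236) or without MLN0128 replicates 1 and 2 (limma adjusted p = 0.0281). The related factor Nfe2l2 (NRF2) was at 0.25 in vehicle tumors (limma adjusted p = 0.0468) and not called with a drug, and the tumor call was lost in 8 of the 12 fits without 1 library. Of the 13 genes on this list 3 were higher and 6 lower in vehicle tumors, against 36.0% and 33.0% of all tested genes. The balance turned to 10 and 1 with plain library totals, against 61.3% and 15.2%. With equal FPKM sums it was 11 and 1, against 65.95% and 11.71%. With MLN0128 5 were lower, against 17.1%, and 3 with equal FPKM sums, against 9.16%, Herpud1, an ER degradation factor, the most at -1.36.

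As other large complexes, the 8 TRiC chaperonin genes, which fold actin and tubulin, were all higher in vehicle tumors under every scaling tried. Their median was 1.16, which each other scaling raised. At the deposited scaling 36.0% of all tested genes were higher in vehicle tumors, and 0 of the 8 were called with either drug. The COP9 signalosome, whose subunits resemble those of the lid, had 2 of 9 genes higher and 4 lower in vehicle tumors, against 36.0% and 33.0%. With plain library totals 7 were higher and 0 lower, against 61.3% and 15.2%. With MLN0128 2 were lower, Gps1 most at -0.60, whereas with equal FPKM sums 2 were higher and 0 lower.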

How the data were processed

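RNA-Seq libraries from 12 mice (3 per group) were prepared from poly(A) RNA or after rRNA removal. The authors counted reads per gene on GRCm38 (FastQC 0.11.7 is named in the submitters' processing notes, and the aligner and strand setting are not given in the sources used here) and deposited FPKM values, which were the only values used. Because these are not counts, limma 3.58.1 (R 4.3.3) was fitted to log2(FPKM + 1) over all 12 libraries in 1 model (8 residual degrees of freedom, intensity trend), in place of the edgeR test of the study. Genes needed 0.5 FPKM in 3 libraries, and calls had a Benjamini-Hochberg adjusted p under 0.05. Fold changes on this scale understate the change of low genes. In all tests p-values measure only the spread between these samples. Low FPKM values are multiples of 1 read: between 98.2% and 98.8% of values came out whole within 0.1 read, giving the library totals. The fit was tested on simulated data. Replicate numbers were checked and did not pair the mice. Alternatives were 26 other settings of pseudocount, filter, scaling, samples, test and block. Promoter sequences came from RefSeq (GRCm38.p6), and gene positions from the GRCm38 annotation. Of the members, 12 share exon sequence with a gene on the opposite strand and 4 with one on the same strand, so their reads may be mixed.

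Members and gene lists were chosen with earlier results of these data known, and ratios within a library after their values were seen. Named were the catalytic, immunoproteasome, activator and chaperone genes, the highest and lowest member of each core, base and lid group, members called against the majority or by treat, name-only matches, and from the lists fixed regulators and the genes with the largest rise or fall. Some genes of the ubiquitin list are not reported here. Other named members were added to show which calls held.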

Additional observations from a re-analysis of the deposited data

How the results depend on the processing

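Scaling between libraries was the only choice tried that turned the direction of a value called before or after the change. Over all tested genes it moved the median change (log2) between vehicle tumors and liver by 0.57 with plain library totals and by 0.72 with equal FPKM sums, and between MLN0128 and vehicle by 0.10 and 0.17. For vehicle tumors against liver, the members called higher numbered 36 with plain totals, 43 with equal sums, 20 after quantile normalization, 4 by treat and 7 with a fold change above 1.5 added, and the members called lower 0, 0, 6, 3 and 12. With equal sums 65.95% of all tested genes were called higher and 11.71% lower. For MLN0128 against vehicle, 3, 4 and 3 members were called higher under these scalings, and lower were 10 with equal sums, 13 after quantile normalization, 7 without MLN0128 replicates 1 and 2, 1 by treat and 13 above 1.5-fold. For everolimus against vehicle, 4 were higher after quantile normalization and 0 with only the groups compared, with the replicate block and by treat. Lower there were 1 with a pseudocount of 0.1 or 0.01, with only the groups compared and with the block, and 0 by treat. For MLN0128 against everolimus, lower were 1 with plain totals, 0 with equal sums, 1 after quantile normalization, 0 with only the groups compared, 1 with the block, 0 without MLN0128 replicates 1 and 2, 0 by treat and 2 above 1.5-fold. Leaving out each library in turn gave 10 to 12 higher and 19 to 24 lower for vehicle tumors against liver, 0 higher and 20 to 26 lower for MLN0128, 0 to 2 higher and 1 to 3 lower for everolimus, and 0 higher and 0 to 8 lower for MLN0128 against everolimus. Same-numbered mice shared only a number: the correlations of their deviations lay between -0.289 and 0.148. With the replicate block the counts were 12 and 22, 0 and 23, 0 and 1, and 0 and 1 (higher and lower, in the order above). Beyond the construction of the alternatives, the cause of these changes was not tested. With plain library totals, 31 log2 fold changes between vehicle tumors and liver turned sign: Psma1 0.095, Psma2 0.57, Psma3 0.50, Psma4 0.031, Psma6 0.20, Psma7 0.74, Psmb3 0.56, Psmb4 0.38, Psmb5 0.85, Psmb6 0.15, Psmb7 0.016, Psmb10 0.69, Psmc1 0.54, Psmc2 0.87, Psmc3 0.32, Psmc6 0.34, Psmd1 0.78, Psmd2 0.84, Psmd4 0.60, Psmd6 0.26, Psmd11 0.69, Psmd12 0.50, Psmd13 0.45, Psmd5 0.41, Psme1 0.43, Psmf1 0.70, Psme2 0.29, Psme4 0.39, Psme2b 0.0042, Ddi2 0.52, Sem1 0.56. With equal FPKM sums, 33 log2 fold changes between vehicle tumors and liver turned sign: Psma1 0.35, Psma2 0.83, Psma3 0.76, Psma4 0.29, Psma6 0.46, Psma7 1.00, Psmb1 0.16, Psmb3 0.82, Psmb4 0.64, Psmb5 1.11, Psmb6 0.41, Psmb7 0.27, Psmb10 0.94, Psmc1 0.79, Psmc2 1.12, Psmc3 0.58, Psmc6 0.60, Psmd1 1.02, Psmd2 1.10, Psmd4 0.86, Psmd6 0.52, Psmd11 0.94, Psmd12 0.76, Psmd13 0.71, Psmd5 0.64, Psme1 0.69, Psmf1 0.91, Psme2 0.55, Psme4 0.64, Psme2b 0.22, Ddi2 0.77, Pomp 0.056, Sem1 0.82. After quantile normalization, 17 log2 fold changes between vehicle tumors and liver turned sign: Psma2 0.14, Psma3 0.24, Psma6 0.20, Psma7 0.52, Psmb3 0.40, Psmb4 0.34, Psmb5 0.88, Psmb6 0.093, Psmc1 0.33, Psmc3 0.15, Psmc6 0.029, Psmd2 0.64, Psmd4 0.20, Psmd12 0.12, Psmd13 0.0081, Psme1 0.079, Psme2 0.0496. Of the single-gene results over 60 genes, 5222 kept direction and call, 146 turned sign without a call in either setting (68 of them under the 3 other scalings), 251 lost and 60 gained a call. In simulated data for MLN0128 against vehicle, 200 of 14397 genes were changed. Of genes changed by 1 on the log2 scale 72.8% were called, and of those changed by 0.5 17.2%. Treat called 0.2% of those changed by 1. In the real comparison 14.9% of all tested genes were called higher and 17.1% lower. The adjusted threshold is less strict when more genes change, so the simulated shares do not measure what the real comparison can detect. A treat count of 0 or 1 should still be read with care, as only 0.479% and 1.65% of all tested genes passed upward and downward.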

Other observations

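Markers of other cell types in the bulk tissue also differed between the groups, and their part in the member values was not tested. Counts are at the deposited scaling, with the others named where they differ. All 3 tested biliary or progenitor markers were higher in vehicle tumors than in liver, with a median log2 fold change of 1.5, and lower with both drugs, with medians of -1.61 with MLN0128 and -1.66 with everolimus. Of 6 macrophage markers 2 were higher and 3 lower in vehicle tumors (2 and 1 with plain library totals). Of 4 endothelial markers 2 were lower and 0 higher (2 lower and 2 higher with plain totals, 3 lower and 0 higher after quantile normalization), and of 4 stellate or fibroblast markers 2 were higher and 2 lower. Both erythroid markers were lower in vehicle tumors, and 1 was lower with MLN0128 (0 under each other scaling) and 1 higher with everolimus (0 with equal FPKM sums). Of 6 hepatocyte markers 1 was higher and 2 lower with MLN0128 (2 and 1 under each other scaling), and 1 higher and 1 lower with everolimus.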
